A study of Mus musculus with 4 samples.

Results

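The 41 sarcomere genes of striated muscle were followed in RNA-seq of 4 sarcomas from W/+ mice, heterozygous for a p53 mutation and labelled p53R282W/+. By the study's account, R282W is the human numbering, and the mice carry the corresponding change in mouse p53. The genes were taken by symbol from a table of 56691 genes, and all 41 were found there, each in a single row. By role, 12 belong to the thin filament, 9 to the thick filament and titin, 11 to the Z disc, 3 to the M band and 6 to the assembly or turnover of these structures or to none of them. The myosin heavy chains were kept apart as a separate list. ATO 1 and ATO 2 came from mice treated with arsenic trioxide (ATO), an arsenical that the study used to restore mutant p53, given at 35 mg/L in the drinking water from day 90 after birth. Ctl 1 and Ctl 2 came from W/+ mice labelled PBS, which carried the same mutant allele. The tumors were spontaneous, the labels name the tissue only as sarcoma tumor, and the mouse strain develops sarcomas of several kinds (angiosarcoma, soft sarcoma and osteosarcoma, by the study's account of the model). The subtype, the body site and the age at collection were not given in the sources used here, and nothing says how much adjoining tissue each piece held. The design text speaks of sarcomas before and after ATO, whereas the labels give each sarcoma a single treatment, and the sources do not say whether any came from the same mouse. With 2 sarcomas a group, p-values measure only the spread between these samples, and an exact two-sided permutation test cannot go below p = 0.333.

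A sarcomere is the contractile unit of skeletal and heart muscle, in which actin thin filaments anchored at the Z disc slide along myosin thick filaments joined at the M band, with titin as the elastic link between them. Troponin and tropomyosin on the thin filament let calcium switch contraction on. Many of these proteins come as a fast and a slow isoform made from separate genes, and a fast-twitch fiber holds mainly the former while a slow-twitch fiber holds mainly the latter, several of which the heart shares.

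The sarcomere genes as a group were far higher in the ATO sarcomas than in the Ctl sarcomas, and most of the excess was in ATO 1. In Ctl 1 their reads made up 0.0248% of all counted reads (exact Clopper-Pearson 95% interval 0.0241 to 0.0255), and in Ctl 2 0.0587% (0.0576 to 0.0598). In ATO 1 they made up 4.2% (4.19 to 4.21) and in ATO 2 0.293% (0.29 to 0.296). The 4 levels did not overlap between groups, but ATO 1 stood further above ATO 2 than ATO 2 stood above Ctl 2. The median expression of the 41 genes, in FPKM (reads per kilobase of exon, scaled to the sequencing depth), was 0.16 in Ctl 1 and 1.63 in Ctl 2, against 102 in ATO 1 and 6.4 in ATO 2. Of the 41 genes, 8 had no read in Ctl 1, which allows up to 0.172 CPM (counts scaled to the sequencing depth) each, and none was without reads elsewhere. In Ctl 1 the reads were mainly those of Tpm2, β-tropomyosin, which smooth muscle and connective tissue also make, with 70.4% of the group's reads (69 to 71.8) against 2.73% in ATO 1 (2.7 to 2.77).

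All 41 genes had a higher fitted level in ATO than in Ctl, against 49.2% of the 17188 genes tested. Their median log2 fold change was 6.23, from 1.19 for Tnni1 to 7.96 for Trim63, against -0.02 over all genes tested. In 33 genes the log2 fold change was at least 4, a size that 2.65% of all genes tested reached. Both ATO sarcomas were above both Ctl sarcomas in 38 genes by TMM-normalized CPM, against 19.7% of all genes tested, with Tnni1, Myl4 and Trim63 as the exceptions. None of the 41 passed an adjusted p of 0.05 in edgeR's quasi-likelihood test, and neither did any other gene (0%). The smallest adjusted p was 0.57. At an unadjusted p under 0.05, 30 of the 41 genes were higher in ATO, against 5.44% of all genes tested. DESeq2 called 33 of the 41 higher at an adjusted p under 0.05 (3.26% of all genes tested), edgeR without a filter on low counts called 32 (1.47%), and limma on log2 FPKM values called none, with 27 at an unadjusted p under 0.05 after adding 1 FPKM and 33 after adding 0.1 FPKM (3.05% and 3.59% of all genes tested were higher at that p). The spread between sarcomas of a group was wide, with a common biological coefficient of variation of 62.5% over all genes tested. Without ATO 1 the median log2 fold change was 3.62, and 11 genes were higher at an unadjusted p under 0.05, against 5.88% of all genes tested. Without Ctl 1 the median was 5.49 with 10 such genes, against 2.54%, and without Ctl 2 it was 9.76. In a bulk tumor sample, fewer cells of a type and less RNA per cell cannot be told apart.

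**Figure D1:**
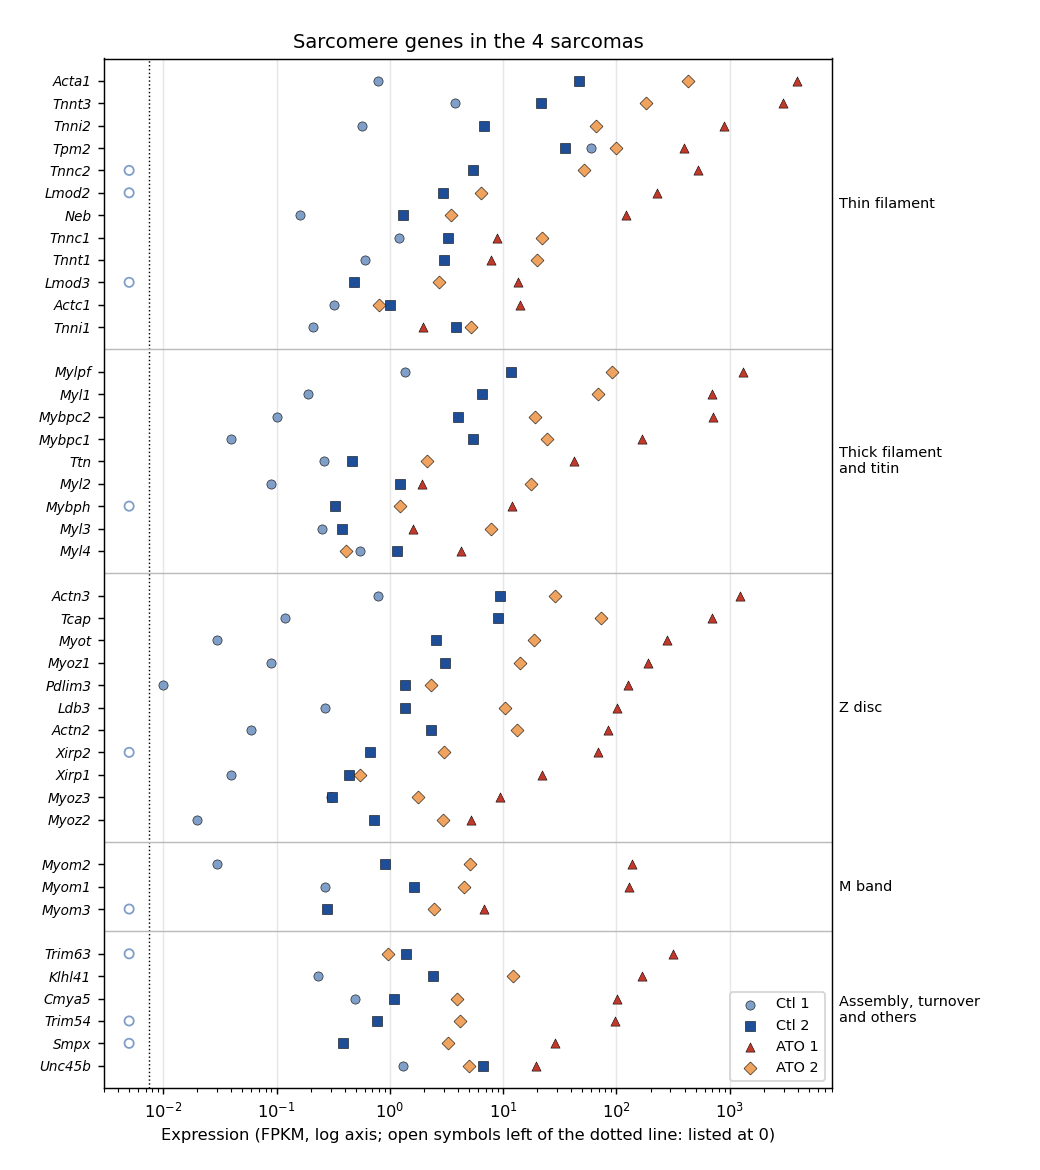
Expression of each sarcomere gene (rows, by role and then by mean level) in FPKM on a log axis, with 1 symbol for each of the 4 sarcomas. ATO 1 is the rightmost symbol in 36 of 41 rows, and open symbols mark an FPKM listed at 0, all of them in Ctl 1 (Xirp2 had 1 read there).

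To show the sequence at which some of these genes start, 4 promoters are given. They are those of Acta1, skeletal α-actin and the gene with the highest mean FPKM of the 41; Mylpf, the highest of the fast isoforms with an entry in the table used; Mybpc1, the highest of the slow isoforms; and Trim63, with the largest fitted fold change. Acta1 and Trim63 were added after their values were seen. The fast isoform Tnnt3 is higher than Mylpf but has no entry. Each runs from 250 bases before to 50 bases after the annotated start, is taken from RefSeq on GRCm38.p6 and is written 5′ to 3′ on the strand of the gene. Acta1 lies at chr8:123894726-123895025, minus strand, Mylpf at chr7:127211358-127211657, plus strand, Mybpc1 at chr10:88605103-88605402, minus strand and Trim63 at chr4:134314870-134315169, plus strand. Capitals mark matches to 4 motifs searched on both strands, namely CAGCTG (an E-box of the kind that myogenic bHLH factors bind), CATTCC (the MCAT element of TEAD factors), the MEF2 consensus and the CArG box of serum response factor.
Acta1: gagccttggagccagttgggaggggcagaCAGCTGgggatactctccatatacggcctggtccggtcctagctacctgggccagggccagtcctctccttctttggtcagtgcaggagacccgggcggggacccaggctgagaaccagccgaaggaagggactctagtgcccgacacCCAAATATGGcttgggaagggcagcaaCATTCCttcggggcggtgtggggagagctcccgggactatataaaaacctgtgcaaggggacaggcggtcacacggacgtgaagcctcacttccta
Mylpf: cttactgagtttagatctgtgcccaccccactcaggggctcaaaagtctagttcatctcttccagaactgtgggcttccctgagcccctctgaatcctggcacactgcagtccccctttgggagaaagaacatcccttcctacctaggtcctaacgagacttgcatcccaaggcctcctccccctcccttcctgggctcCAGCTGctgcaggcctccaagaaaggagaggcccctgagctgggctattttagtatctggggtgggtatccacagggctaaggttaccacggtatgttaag
Mybpc1: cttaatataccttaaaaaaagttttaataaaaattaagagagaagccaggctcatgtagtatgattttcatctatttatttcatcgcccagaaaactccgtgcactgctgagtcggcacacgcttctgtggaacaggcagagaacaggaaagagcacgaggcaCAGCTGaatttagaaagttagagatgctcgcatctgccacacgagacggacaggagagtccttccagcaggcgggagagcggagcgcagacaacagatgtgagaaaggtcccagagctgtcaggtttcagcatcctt
Trim63: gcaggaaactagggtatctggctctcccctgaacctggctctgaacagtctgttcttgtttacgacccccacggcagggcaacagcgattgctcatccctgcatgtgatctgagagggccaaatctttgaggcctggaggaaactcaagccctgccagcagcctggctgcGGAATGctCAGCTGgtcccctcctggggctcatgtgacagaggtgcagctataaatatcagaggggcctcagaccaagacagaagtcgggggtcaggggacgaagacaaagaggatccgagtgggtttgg
In Acta1 the capitals mark CAGCTG, the CArG box and CATTCC in that order. Mylpf and Mybpc1 hold CAGCTG alone, and Trim63 holds CATTCC on the opposite strand followed by CAGCTG.

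Over the 30 sarcomere genes with an entry, CAGCTG was found in 14 (46.7%, against 18.3% of the 27025 genes in the table), CATTCC in 10 (33.3% against 16.6%), the MEF2 consensus in 5 (16.7% against 3.7%) and the CArG box in 5 (16.7% against 1.81%). The CArG box genes were Acta1, Actc1, Ldb3, Myl3 and Myom1, and the MEF2 genes were Klhl41, Myom3, Myoz2, Ttn and Xirp2, with no gene in both. CAGCTG was held by 2 of the 4 fast isoforms and 4 of the 7 slow isoforms with an entry. These are letter matches in a short window and were not tested.

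Among the thin filament genes, Acta1 was the highest in 3 of the 4 sarcomas. It stood at 0.78 FPKM in Ctl 1 and 46.51 in Ctl 2, compared with 3898.39 in ATO 1 and 427.62 in ATO 2. In TMM-normalized CPM this was 32.9 ± 45 in Ctl and 3384 ± 3650 in ATO (mean ± SD, n = 2 each), so that the SD was larger than the mean in each group. The fitted log2 fold change was 6.68 ± 2.41 (SE, as for each log2 fold change that follows). Where 4 values are given, their order is Ctl 1, Ctl 2, ATO 1, ATO 2. Actc1, the cardiac and fetal α-actin, was much lower, at 0.32, 1, 13.97 and 0.81 FPKM in Ctl 1, Ctl 2, ATO 1 and ATO 2. Only ATO 1 stood apart for Actc1, and by FPKM ATO 2 was below Ctl 2. Neb, the giant protein nebulin along the thin filament, stood at 0.16, 1.31, 122.65 and 3.48 FPKM in the same order. Lmod2 and Lmod3, leiomodins that nucleate and lengthen actin filaments, had no read in Ctl 1 and reached 226.47 and 13.42 FPKM in ATO 1. Tpm2 was the only one of the 41 genes that was lower in Ctl 2 than in Ctl 1, and its log2 fold change of 2.57 ± 0.8 was the second lowest of the 12 thin filament genes, after Tnni1.

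The troponin complex has a calcium-binding, an inhibitory and a tropomyosin-binding subunit, and the fast form of each was low in both Ctl sarcomas and high in ATO 1. Tnnt3, fast troponin T, stood at 3.73 FPKM in Ctl 1 and 21.65 in Ctl 2, against 2979.47 in ATO 1 and 181.53 in ATO 2. Tnni2, fast troponin I, stood at 0.57, 6.84, 888.29 and 65.53 FPKM in that order. Tnnc2, fast troponin C, had no read in Ctl 1 and stood at 5.43 FPKM in Ctl 2, 519.95 in ATO 1 and 51.93 in ATO 2. From lowest to highest, each of these 3 genes ranked Ctl 1, Ctl 2, ATO 2 and ATO 1, with log2 fold changes of 7.11 ± 1.92, 7.16 ± 1.99 and 6.88 ± 2.39. Tnni2 and Tnnt3 are neighbors on chromosome 7, at 142441808 to 142444410 and 142498836 to 142516009 on GRCm38, with 54.4 kb between them.

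The slow troponins followed another order. Tnnc1, the slow and cardiac troponin C, stood at 1.21 FPKM in Ctl 1 and 3.26 in Ctl 2, compared with 8.9 in ATO 1 and 21.97 in ATO 2. Tnnt1, slow troponin T, stood at 0.6, 3.03, 7.78 and 20.04 FPKM. Tnni1, slow troponin I, stood at 0.21, 3.83, 1.98 and 5.24 FPKM. All 3 were highest in ATO 2 rather than in ATO 1, and Tnni1 in ATO 1 was below Ctl 2, so that its groups overlapped. Their log2 fold changes were 3.13 ± 0.91 (Tnnc1), 3.29 ± 1.06 (Tnnt1) and 1.19 ± 1.41 (Tnni1). Among the 12 thin filament genes the adjusted p ran from 0.57 to 0.839.

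In the thick filament, the fast light chains were again far above the slow ones in ATO 1. Mylpf, the fast regulatory light chain, stood at 1.35 FPKM in Ctl 1 and 11.79 in Ctl 2, against 1311.07 in ATO 1 and 91.88 in ATO 2. Myl1, the fast essential light chain, stood at 0.19, 6.49, 691.31 and 68.72 FPKM. Their log2 fold changes were 6.89 ± 1.9 and 6.99 ± 2.19. The slow counterparts, shared with the heart ventricle, were Myl2 at 0.09, 1.23, 1.92 and 17.68 FPKM and Myl3 at 0.25, 0.38, 1.59 and 7.85 FPKM. Both were highest in ATO 2, where Myl2 was 19.5 times and Myl3 27.8 times the level of Ctl 2 by TMM-normalized CPM. Myl4, the essential light chain of atrium and fetal muscle, stood at 0.54, 1.16, 4.23 and 0.41 FPKM, with ATO 2 the lowest of all 4 on that scale. Its log2 fold change of 1.6 ± 1.15 turned to -0.64 without ATO 1.

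Myosin-binding protein C runs in stripes along the thick filament and tunes its motors. Mybpc2, the fast form, stood at 0.1 FPKM in Ctl 1 and 4.02 in Ctl 2, compared with 709.65 in ATO 1 and 19.22 in ATO 2. Mybpc1, called the slow form although fast fibers make it too, stood at 0.04, 5.37, 167.69 and 24.19 FPKM. Unlike the slow troponins and light chains, Mybpc1 was highest in ATO 1, at 5.65 times ATO 2 by TMM-normalized CPM, and its log2 fold change was 5.33 ± 2.28 beside 7.61 ± 2.7 for Mybpc2. Ttn, titin, stood at 0.26, 0.46, 42.23 and 2.15 FPKM. Over its long exons (117334 bases in the table) that was 528 reads in Ctl 1 and 89850 in ATO 1. Mybph, a shorter relative of myosin-binding protein C, had no read in Ctl 1 and reached 11.93 FPKM in ATO 1. The 9 genes had adjusted p between 0.57 and 0.729.

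All 11 Z disc genes were higher in both ATO than in both Ctl sarcomas by TMM-normalized CPM, against 19.7% of all genes tested. The same held by FPKM, for which the share of all genes was not computed. Actn3, the α-actinin of fast fibers, stood at 0.79 FPKM in Ctl 1 and 9.42 in Ctl 2, against 1234.84 in ATO 1 and 28.89 in ATO 2. Actn2, the form of slow and fast fibers and heart, was lower in ATO 1 at 84.29 FPKM, with 13.3 in ATO 2. Tcap, telethonin, which caps titin at the Z disc, stood at 0.12, 8.98, 697.75 and 73.62 FPKM. Actn3 and Tcap reached like levels in Ctl 2 and differed in ATO 2. Myoz1, the fast calsarcin, stood at 0.09, 3.09, 191.49 and 14.06 FPKM, and Myoz2, the slow and cardiac calsarcin, at 0.02, 0.72, 5.2 and 2.95 FPKM. Calsarcins tether calcineurin to α-actinin, and the slow one had the lowest log2 fold change of the 11 (3.72 ± 1.56) while Actn3 had the highest (7.09 ± 2.39). Myoz3, the third calsarcin, had nearly equal reads in Ctl 1 and Ctl 2 (18 and 19) and the smallest unadjusted p of the 41 genes in edgeR (0.00679, adjusted p 0.57). Ldb3, which links α-actinin to the Z disc, stood at 0.27, 1.36, 100.99 and 10.29 FPKM, and Myot, myotilin, which crosslinks actin there, at 0.03, 2.57, 281.67 and 18.9 FPKM. Both kept the order of the fast troponins, with log2 fold changes of 6.25 ± 1.52 and 7.01 ± 2.4. Pdlim3, a Z disc protein of the PDZ and LIM kind, was 44.8 times as high in ATO 1 as in ATO 2, the widest gap between these sarcomas in the Z disc. Xirp1 and Xirp2, the Xin actin-binding proteins of muscle attachment sites, stood at 22.17 and 68.67 FPKM in ATO 1. In ATO 2 they stood at 0.55 and 2.98 FPKM, and Xirp1 was 1.69 times Ctl 2.

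The 3 myomesins, which crosslink thick filaments at the M band, were also higher in both ATO than in both Ctl sarcomas (19.7% of all genes tested by TMM-normalized CPM). Myom2 stood at 0.03 FPKM in Ctl 1 and 0.91 in Ctl 2, compared with 137.84 in ATO 1 and 5.08 in ATO 2, and Myom1 at 0.27, 1.63, 128.2 and 4.49 FPKM. Myom3 had no read in Ctl 1 and stood at 0.28, 6.73 and 2.43 FPKM in Ctl 2, ATO 1 and ATO 2. The gap between the ATO sarcomas was 22.1 times for Myom2 and 23.2 times for Myom1 but 2.26 times for Myom3, by TMM-normalized CPM. Their log2 fold changes were 7.4 ± 2.49, 6.26 ± 1.97 and 5.26 ± 1.81, each with an adjusted p of 0.57.

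The 6 genes of assembly and turnover ran from 1.82 to 7.96 in log2 fold change. Trim63, the muscle ubiquitin ligase MuRF1 that marks thick filament proteins for breakdown and is induced in muscle wasting, had no read in Ctl 1 and stood at 1.39 FPKM in Ctl 2, 314.67 in ATO 1 and 0.97 in ATO 2. ATO 2 was thus at the level of Ctl 2, and ATO 1 was 265 times ATO 2 by TMM-normalized CPM, the widest gap among the 41 genes. Its fitted log2 fold change of 7.96 ± 3.43 (unadjusted p 0.0712, adjusted p 0.599) came to 0.90 without ATO 1. Trim54, the related MuRF3, kept the groups apart, at 0.77, 96.77 and 4.2 FPKM in Ctl 2, ATO 1 and ATO 2 after no read in Ctl 1. Klhl41, which stabilizes nebulin, stood at 0.23, 2.42, 166.66 and 12.23 FPKM. Unc45b, the chaperone that folds muscle myosin, had the smallest change of the 6, with 1.31, 6.66, 19.45 and 5.02 FPKM and a log2 fold change of 1.82 ± 0.99 (adjusted p 0.658). In FPKM its ATO 2 value was below Ctl 2. Cmya5, or myospryn, and Smpx, a small costamere protein, reached 102.23 and 28.92 FPKM in ATO 1 and stood at 3.93 and 3.23 in ATO 2.

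**Figure D2:**
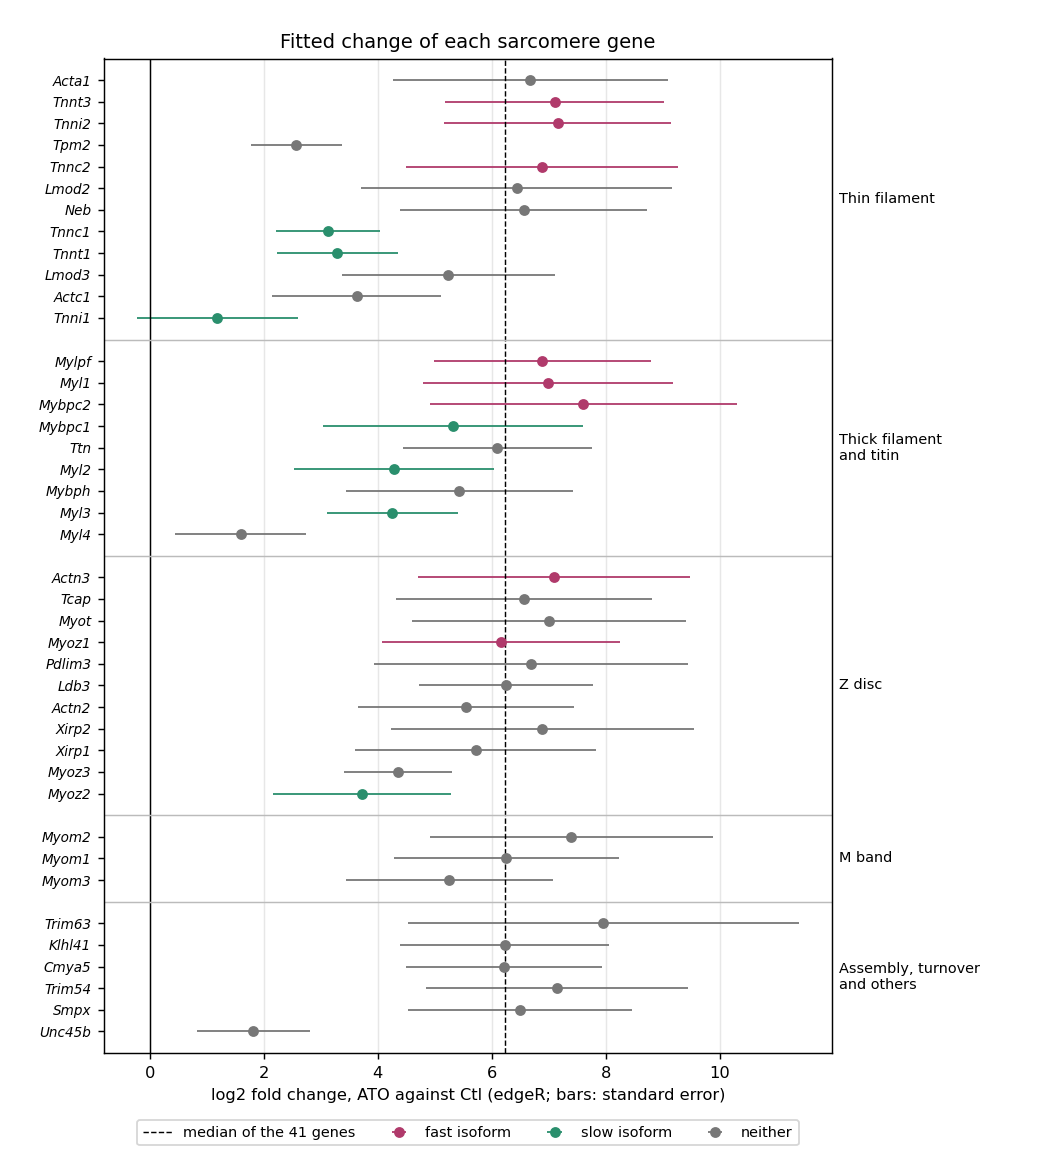
Fitted log2 fold change of ATO against Ctl for each sarcomere gene (edgeR, n = 2 sarcomas a group), with bars for the standard error and color for fast, slow or neither isoform. All 41 points lie above 0, the 8 fast isoforms between 6.17 and 7.61 and the 7 slow isoforms between 1.19 and 5.33.

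Fast and slow isoforms differed in the size of the change. The 8 fast isoforms had a median log2 fold change of 7.04 (6.17 to 7.61), the 7 slow isoforms 3.72 (1.19 to 5.33) and the other 26 genes 6.24 (1.6 to 7.96). At an unadjusted p under 0.05 in edgeR, 8 of 8 fast and 3 of 7 slow isoforms were higher in ATO, against 5.44% of all genes tested. DESeq2 called 8 fast and 4 slow isoforms higher (3.26% of all genes tested), and edgeR without the filter called 8 and 2 (1.47%). Over 7 pairs of a fast and a slow paralog, the fast isoform had the larger log2 fold change in every pair, by 2.29 (Mybpc2 and Mybpc1) to 5.97 (Tnni2 and Tnni1), with a median difference of 2.73. The difference rested on ATO 1, as the median was 0.14 without ATO 1 and 5.59 without ATO 2. Without Ctl 2 it was 3.99. In ATO 2 the fast and slow isoforms stood above Ctl 2 by like amounts, a median of 10.9 times for the fast and 8.93 times for the slow, whereas in ATO 1 the medians were 132 and 3 times Ctl 2. No test was run on the fast and slow difference.

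The share of the fast isoform within each pair, computed from length-normalized reads, shows the same within single tumors. In ATO 1 the fast isoform made up 80.9 to 99.9% of its pair in all 7 pairs, with a median of 99.7%. In ATO 2 the median was 83.9%, in Ctl 2 81.2% and in Ctl 1 73.5%. For the troponin I pair the fast share was 73.5% in Ctl 1 (interval of the same kind 55.2 to 86.4, 28 reads), 64.1% in Ctl 2 (59.5 to 68.4), 99.8% in ATO 1 (99.7 to 99.8) and 92.6% in ATO 2 (91.7 to 93.4). For the troponin T pair it was 86.2% (79.7 to 91.1), 87.7% (85.4 to 89.8), 99.7% (99.7 to 99.8) and 90.1% (89.3 to 90.8) in that order. In the troponin T pair the intervals of Ctl 1, Ctl 2 and ATO 2 overlapped. For the regulatory light chains, Mylpf and Myl2, the order differed, with 93.9% (82.4 to 98.8), 90.6% (87.4 to 93.2), 99.9% (99.8 to 99.9) and 83.9% (82.5 to 85.2), so that ATO 2 held the lowest fast share. The same held against Ctl 2 for the essential light chains Myl1 and Myl3, with 94.5% (90.9 to 96.9) in Ctl 2 and 89.7% (88.5 to 90.9) in ATO 2. In Ctl 1, the share was 43.4% (19.5 to 69.8, 16 reads) for Myl1 and Myl3 and 0% for troponin C (0 to 19.2, 22 reads). The Mybpc pair had the lowest share in each sarcoma but Ctl 1, where it was 71.5% (34.9 to 93.9, 9 reads), with 42.8% (39 to 46.7) in Ctl 2, 80.9% (80.6 to 81.2) in ATO 1 and 44.3% (42.4 to 46.2) in ATO 2. For troponin C it was 62.5% (54 to 70.3) in Ctl 2, 98.3% (98 to 98.6) in ATO 1 and 70.3% (67.4 to 73) in ATO 2, and for the calsarcins 81.2% (75.1 to 86.3), 97.4% (97.1 to 97.6) and 82.7% (79.8 to 85.3). The ATO 1 interval lay above those of Ctl 2 and ATO 2 in every pair. Ctl 1 rested on 4 to 126 reads a pair and in 3 pairs its interval was wider than 50 percentage points. These intervals cover counting error only, not the spread between tumors.

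**Figure D3:**
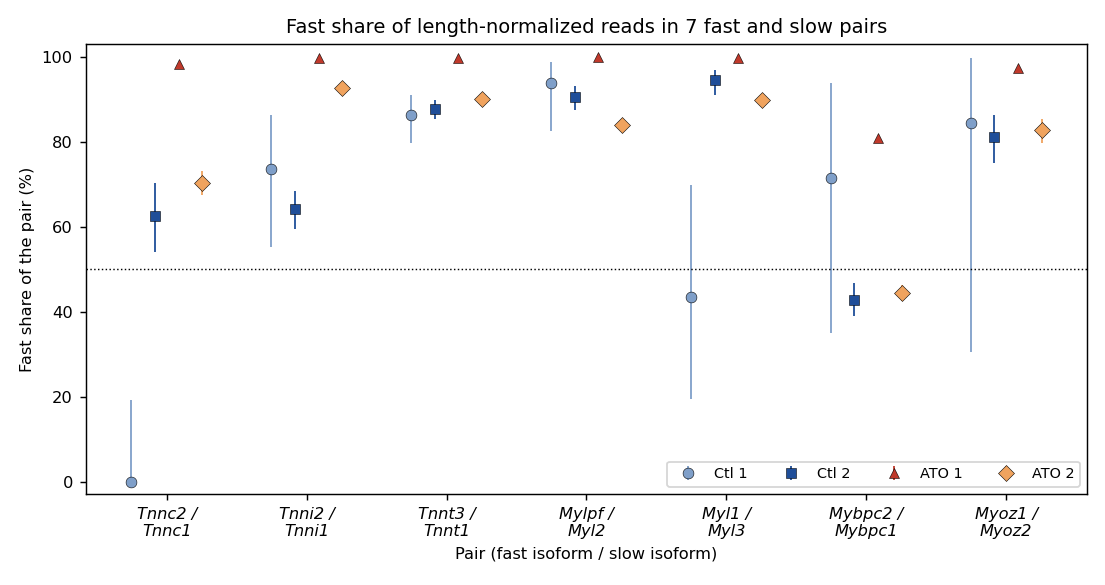
Share of the fast isoform (%) in each of 7 fast and slow pairs, from length-normalized reads, with 1 symbol for each sarcoma and bars for the exact 95% interval of counting. ATO 1 sits between 80.9 and 99.9% and is the highest point in every pair. ATO 2 differs most from Ctl 2 in the troponin I pair and lies below Ctl 2 only in the light chain pairs.

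Between the ATO sarcomas, 36 of the 41 genes were higher in ATO 1 and 5 were higher in ATO 2. The 5 were Tnnc1, Tnni1, Tnnt1, Myl2 and Myl3, all slow isoforms, with ATO 1 at 0.0886 (Myl2) to 0.33 (Tnnc1) of the level of ATO 2. Over all genes tested, 49.9% were higher in ATO 2, and the median ratio of ATO 1 to ATO 2 was 0.995. The median ratio was 11.3 for the fast isoforms (8.16 to 34.8), 0.316 for the slow isoforms and 11.6 for the others (2.26 to 265). These are ratios of single tumors and have no replicate.

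**Figure D4:**
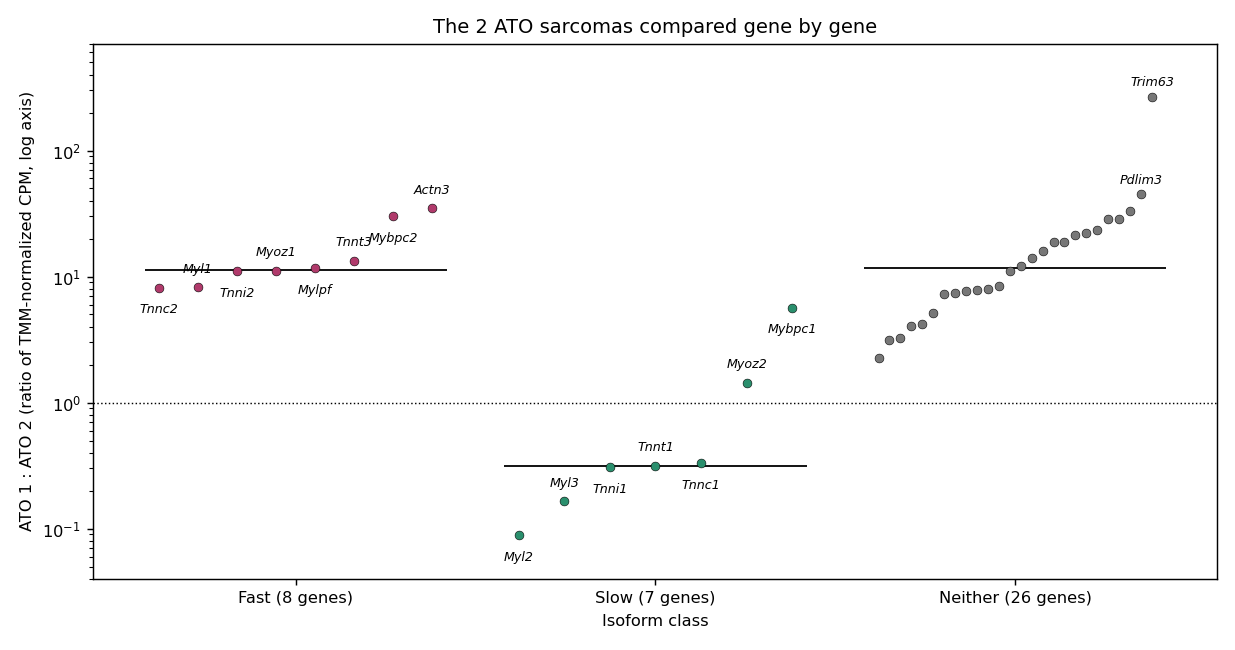
Ratio of ATO 1 to ATO 2 in TMM-normalized CPM (log axis) for the 8 fast, 7 slow and 26 other sarcomere genes, 1 point a gene, with a line at the median of each class. The fast and other genes lie above 1, and 5 of the 7 slow isoforms lie below 1.

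Ctl 2 was above Ctl 1 in 40 of the 41 genes by TMM-normalized CPM, against 51.2% of all genes tested, with Tpm2 as the exception. In Ctl 1, 16 of the 41 genes had 3 reads or fewer. ATO 2 was above Ctl 2 in 39 genes (not Myl4 and Trim63), by a median of 6.82 times, and ATO 1 was above Ctl 2 in 40 (not Tnni1), by a median of 81.8 times. In the order of the 41 genes by FPKM, Ctl 2 and ATO 2 were the most alike, with a Spearman rank correlation across genes of 0.84, followed by Ctl 2 and ATO 1 with 0.71 and ATO 1 and ATO 2 with 0.62. Ctl 1 was less like the rest (0.53 with Ctl 2, 0.43 with ATO 2 and 0.17 with ATO 1). Genes are not independent replicates, and these values are given as a description.

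By FPKM summed over each list, the myosin heavy chains and other fiber genes were ordered like the sarcomere genes, highest in ATO 1 and then in ATO 2. The 6 skeletal myosin heavy chains, the motors themselves, had summed FPKM of 0.32 in Ctl 1 and 30.9 in Ctl 2, against 3658 in ATO 1 and 158 in ATO 2. All 6 had a higher fitted level in ATO (median log2 fold change 4.67), against 49.2% of all genes tested. At an unadjusted p under 0.05 in edgeR, 1 of the 6 was higher in ATO, against 5.44%. Both ATO sarcomas were above both Ctl sarcomas in 4 of the 6 by TMM-normalized CPM, against 19.7% of all genes tested. The exceptions were Myh3, at 0, 0.54, 3.95 and 0.09 FPKM, and Myh8, at 0, 0.14, 4.83 and 0.09, each with ATO 2 below Ctl 2. Myh4, the fast IIb chain, stood at 0.14, 16.76, 3029.21 and 90.52 FPKM, Myh1, the IIx chain, at 0.16, 7.62, 581.88 and 34.11, and Myh2, the IIa chain, at 0.02, 3.52, 35.39 and 15.72. Myh7, the slow chain shared with the heart, was the only one of the 6 higher in ATO 2 than in ATO 1, at 17.46 and 2.97 FPKM, as were the slow troponins and light chains. Each of the 9 genes of calcium handling and energy supply in muscle fibers was higher in ATO 1 and ATO 2 than in either Ctl sarcoma. Over all genes tested, 19.7% kept the groups apart in this way by TMM-normalized CPM. The median log2 fold change of the 9 genes was 6.56. At an unadjusted p under 0.05 in edgeR, 8 of them were higher in ATO, against 5.44% of all genes tested. Among them Atp2a1, the calcium pump of fast fibers, stood at 0.21, 31.86, 3219.62 and 171.57 FPKM, Ckm, muscle creatine kinase, at 0.1, 8.56, 1223.66 and 98.78, and Pygm, muscle glycogen phosphorylase, at 1.01, 6.8, 628.89 and 36.07.

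Of 24 other sarcomere and costamere genes, 22 had a higher fitted level in ATO, against 49.2% of all genes tested. Their median log2 fold change was 4.08, and 1.73 without ATO 1. At an unadjusted p under 0.05 in edgeR, 17 were higher in ATO, against 5.44%. Both ATO sarcomas were above both Ctl sarcomas in 18 of the 24 by TMM-normalized CPM, against 19.7%. The list summed to 368, 272, 2406 and 327 FPKM, so that ATO 2 was below Ctl 1. Des, the muscle intermediate filament desmin, stood at 3.6, 23.76, 485.67 and 36.78 FPKM in Ctl 1, Ctl 2, ATO 1 and ATO 2. The tropomyosins that many cell types make did not follow, with Tpm1 at 182.29, 71.97, 337.78 and 46.54 FPKM and Tpm3 at 93.98, 69.71, 39.72 and 48.39. Of 9 regulators and receptors of muscle precursors, 4 passed the filter, all with a higher fitted level in ATO (median 4.84). Myf6, the myogenic factor of mature fibers, stood at 0, 1.23, 77.89 and 1.82 FPKM, Myog, myogenin, at 0, 0.63, 6.23 and 0.48, and Chrna1, an acetylcholine receptor subunit, at 1.98, 0.85, 8.08 and 0.24. These 3 genes, the highest of the list by mean FPKM, were high in ATO 1 alone, and for Myog and Chrna1 ATO 2 was below Ctl 2 by FPKM. Myod1, the remaining gene that passed the filter and named after its values were seen, kept the groups apart at 0, 0.03, 2.07 and 0.53 FPKM (0, 1, 70 and 15 reads). It was the only one of the 4 with an unadjusted p under 0.05 in edgeR (0.00738, adjusted p 0.57), and DESeq2 gave it an adjusted p of 0.0177. Only the ATO sarcomas held enough of its reads to pass the filter, so Myod1 could be kept only as a gene higher in ATO. Its p-values therefore do not count as evidence for that direction. Pax7 and Myf5, which did not pass the filter, had at most 1 read in each Ctl sarcoma, 11 and 12 in ATO 1 and 2 each in ATO 2. Pax3, Mymk and Chrng did not pass it either and had no read in ATO 2. In Ctl 1, Ctl 2 and ATO 1 they had 0, 9 and 9 reads (Pax3), 0, 6 and 38 (Mymk) and 2, 7 and 22 (Chrng). Of 8 heart isoforms, 4 passed the filter, with a median log2 fold change of 0.49 and a summed FPKM of 2 to 5.18 in the 4 sarcomas. Tnni3, heart troponin I, stood at 0.99 to 2.19 FPKM, Tnnt2, heart troponin T, at 0.1 to 3.84 and Mybpc3, heart myosin-binding protein C, at 0.15 to 0.96.

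**Figure D5:**
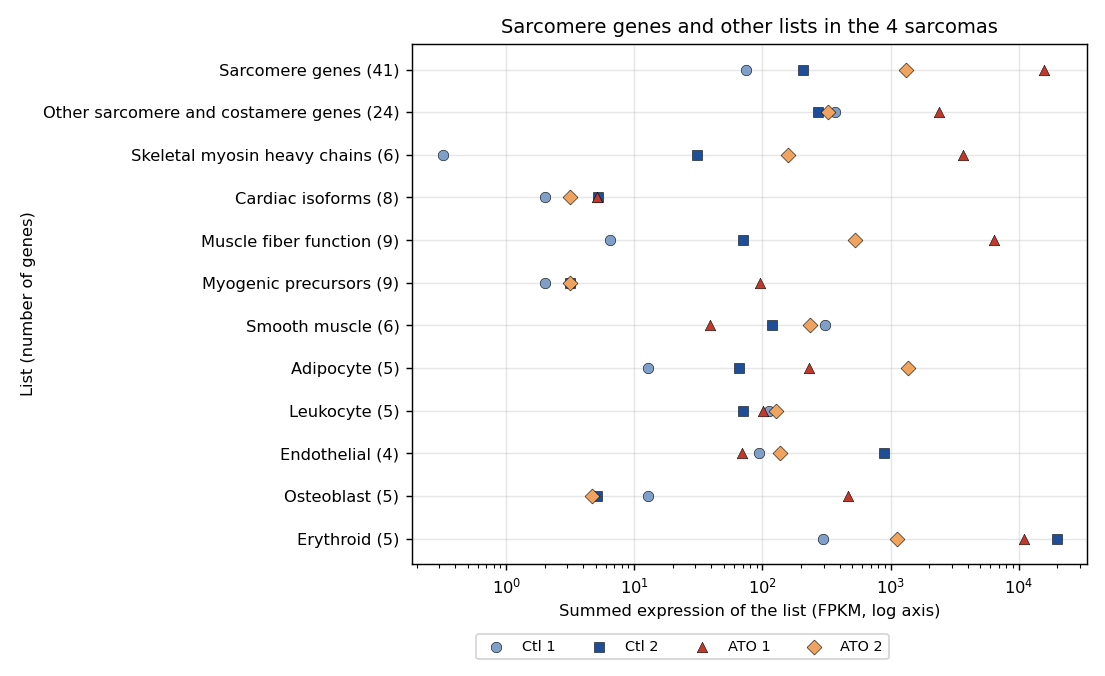
Summed FPKM (log axis) of the 41 sarcomere genes and of 11 other gene lists in each of the 4 sarcomas, with the number of genes in each list in parentheses. The sarcomere genes, myosin heavy chains and fiber genes share the order Ctl 1, Ctl 2, ATO 2, ATO 1, while the adipocyte list is highest in ATO 2, the osteoblast list in ATO 1 and the endothelial list in Ctl 2.

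Markers of other cell types moved between the same tumors. The 5 adipocyte genes were all higher in both ATO than in both Ctl sarcomas, against 19.7% of all genes tested by TMM-normalized CPM. Their summed FPKM was 12.7 and 66.2 in Ctl 1 and Ctl 2 and 229 and 1369 in ATO 1 and ATO 2. Adipoq, adiponectin, had 2 reads in each Ctl sarcoma and stood at 38.89 and 190.62 FPKM in ATO 1 and ATO 2, Cidec, a lipid droplet protein, had 1 read in each and stood at 23.53 and 247.72, and Fabp4, a fatty acid carrier of fat and endothelium, stood at 12.63, 66.1, 154.8 and 809.09 in the 4 sarcomas. Of the other adipocyte genes, Lep, leptin, had no read in either Ctl sarcoma and Plin1, perilipin, had none in Ctl 1. The labels of the sarcomas also carry a cell culture protocol whose additives (insulin, dexamethasone and isobutylmethylxanthine) are the usual mix to turn cells into adipocytes, although the tissue is labelled tumor, and its bearing on these values was not tested. All 5 adipocyte genes were higher in ATO 2 than in ATO 1, the opposite of 36 of the 41 sarcomere genes. The 5 osteoblast genes summed to 465 FPKM in ATO 1 and to 4.69 to 12.7 in the other sarcomas. Ibsp, bone sialoprotein, stood at 290.95 FPKM in ATO 1 and at 0.29 to 0.35 elsewhere. Alpl, alkaline phosphatase, stood at 61.9 against 1.28 to 3.28 and Bglap, osteocalcin, at 58.45 against 0.09 to 0.93. Sp7 was likewise high in ATO 1 alone, at 0, 0.39, 40.52 and 0 FPKM. Runx2 was not, at 10.19, 2.92, 13.12 and 1.01 FPKM, with a log2 fold change of 0.25 ± 1.21. The 4 endothelial genes summed to 893 FPKM in Ctl 2 and to 68.7 to 138 elsewhere, and Cdh5, Pecam1 and Tek were each highest in Ctl 2, at 371.97, 312.43 and 118.74 FPKM. The 5 erythroid genes summed to 298, 19827, 10913 and 1127 FPKM in Ctl 1, Ctl 2, ATO 1 and ATO 2, led by Hbb-bs, Hba-a1 and Hbb-bt. The smooth muscle list, with Acta2, Smtn and Tagln as its highest genes, summed to 307, 119, 38.7 and 234 FPKM. Its sum was lowest where the sarcomere genes were highest. The largest part of that sum in each sarcoma was Acta2, at 210.41, 62.51, 17.7 and 151.42 FPKM. Tagln kept the same order, at 30.1, 10.27, 3.58 and 26.37. Smtn did not, and was lowest in ATO 2, at 31.65, 36.93, 15.96 and 9.84. The 5 leukocyte genes, with Csf1r, Adgre1 and Ptprc highest, differed least, at 70.8 to 127 FPKM. The part of these cell types, and of adjoining muscle, in the sarcomere result was not tested.

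Sequencing depth was close in the 4 sarcomas, with 15259695 to 18134000 counted reads, and 3 reads stood for 0.165 to 0.197 CPM. Mitochondrially encoded genes took 14.7% of the reads in ATO 2 and 1.98 to 2.59% in the others, and leaving them out kept the median log2 fold change at 6.23. Some genes share exons with a gene on the opposite strand. In the GENCODE M21 annotation of GRCm38, 74% of the exonic bases of Tnnc2 overlap Ube2c, a mitotic gene with 77 to 1560 reads in each sarcoma, 49.9% of those of Mybph overlap Adora1 (10 to 678 reads), 26.6% of those of Trim54 and 20.7% of those of Cmya5 overlap antisense genes with 0 to 22 reads. Whether the counting used strand was not given in the sources used here, so reads of these genes and of their partners may not have been told apart. Tnnc2 had no read in Ctl 1, where Ube2c had 959. Of the 41 genes, 6 shared over 5% of their 75-base windows with transcripts of other genes, among them Myl1 with the pseudogene Mylf-ps (8.08%), whereas Actc1 shared none and Acta1 0.394%.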

How the data were processed

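Tumor RNA of 4 sarcomas was sequenced, and the authors deposited a table of raw read counts per gene and of FPKM values per gene and sarcoma. Per the labels and the study's methods, the authors trimmed reads with cutadapt 1.9.1 after FastQC 0.10.1, aligned them to GRCm38 with HISAT2 2.0.1 and took gene counts with HTSeq. The labels and the methods name different extraction and library kits, the labels hold a growth protocol for cultured cells, and strand use in counting is not given in the sources used here. The deposited FPKM equal the count divided by exonic length and by the total count within 0.0051 in 100% of values. Rows without a symbol held 0.0938 to 0.171% of counts. Positions in the table match GENCODE M21 (GRCm38) for 2.76% of shared identifiers, so positions printed here are those of GENCODE or RefSeq, matched by identifier or symbol.

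Groups came from the treatment label. Counts were tested with edgeR 4.0.16 (R 4.3.3; filterByExpr, TMM, quasi-likelihood F-test, two-sided, Benjamini-Hochberg over 17188 genes, threshold 0.05), with limma 3.58.1 and DESeq2 1.42.0 as alternatives. The genes and lists were chosen with earlier results of these data known. All 41 genes are named. Values in every sarcoma are given for the 14 genes of the 7 pairs. They are also given for the 2 genes of each role group with the highest mean FPKM. Others are given by range or as extremes (further values were chosen after they were seen). For each other list, 3 genes by mean FPKM are given (Myh7, Runx2 and Sp7 were added after their values were seen). Promoter entries exist for 30 of the 41 genes, and protein sequences were not used here. Intervals and floors cover counting error only.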

Additional observations from a re-analysis of the deposited data

How the results depend on the processing

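The direction of the sarcomere genes as a group held under every alternative run, with all medians above 0. The count past an adjusted p of 0.05 was 0 in edgeR and 33 with DESeq2 or 32 without a filter on low counts. For the other muscle lists it was 0, against 30 and 27. No sarcomere gene was called with size factors of the median-of-ratios kind, total counts, a minimum mean FPKM of 1, without mitochondrial genes, with limma or without any 1 sarcoma. Over all genes tested, edgeR called 0 and DESeq2 714 of 17188, and edgeR without a filter called 541 of 30859. The median log2 fold change of the 41 genes (6.23) ran from 3.62 to 9.76 when 1 sarcoma was left out (3.62 without ATO 1, 9.76 without Ctl 2), and was 3.85 and 5.46 with limma after adding 1 or 0.1 FPKM. Scaling by total counts moved the median of all genes to -0.28. The difference between the groups' mean shares of reads, 2.20 percentage points, was 0.25 without ATO 1 and 4.16 without ATO 2. The median of the heart isoforms (0.49) turned to -0.04 without a filter, to -0.03 and -0.04 with limma after adding 1 or 0.1 FPKM, and ran from -0.69 to 0.55 when 1 sarcoma was left out. Myl4 (1.6) ran from -0.64 to 2.45 when 1 sarcoma was left out. The causes were not tested beyond the construction of each alternative. Over 533 values of single genes under an alternative, 467 kept direction and call, 65 passed the threshold only under the alternative and 1 turned direction. The labels give both groups the replicate numbers 1 and 2. Across genes, the deviations of Ctl 1 and ATO 1 from their group means had a correlation of -0.024. With so few sarcomas this value cannot show whether the numbers pair the samples, so a fit with the replicate number as a block was also run. With the replicate block, 0 of the 41 genes were called, 12 were higher at an unadjusted p under 0.05 (4.18% of all genes tested) and the median was 6.10. Values of Ctl 1 rest on the fewest reads, with 3 or fewer for 16 of the 41 genes.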
